A study of Drosophila melanogaster with 12 samples.

Results

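Glutathione S-transferases (Gst) and UDP-glycosyltransferases (Ugt) are the conjugating enzymes of detoxification, and their genes were followed here in heads of flies fed pentylenetetrazole. A probe was taken as a member where its gene symbol in the array annotation, or the current symbol of its CG number, begins with Gst or Ugt, and where it carries 1 gene. This gave 35 genes on 40 array features, 23 Gst genes on 28 features and 12 Ugt genes on 12 features, of 6793 genes and 7558 features with 1 symbol. In the fly assembly used for current symbols each family has 35 genes, so the array holds a part of each. The tested flies were unmated Oregon-R wild type males, 3-4 days old, kept on food with pentylenetetrazole (PTZ, a convulsant that blocks GABA-gated chloride channels) at 8 mg per ml for 12 hrs or until the 2nd or 7th day. The flies set against them were of the same strain, sex and age, kept for the same time on normal food (NF), which is also the base of the PTZ food. Both groups began with 30 flies per vial, and RNA came from pooled heads, so a change in the cells of the head and a change of RNA per cell cannot be told apart. PTZ and NF RNA were hybridised together on 12 2-colour arrays, 4 replicates at each time, of which 2 carried PTZ in Cy5 (forward arrays) and 2 had the dyes swapped (swapped arrays).

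Gst enzymes join glutathione to electrophilic compounds, including insecticides and products of lipid peroxidation, and are sorted into classes. The delta class (GstD) and the epsilon class (GstE) are insect classes whose genes lie largely in clusters, while the theta (GstT), zeta (GstZ) and omega (GstO) classes are shared with mammals. Ugt enzymes sit in the membrane of the endoplasmic reticulum and pass a sugar, in insects mostly glucose from UDP-glucose, to lipophilic compounds, which makes them easier to excrete. Of the genes on the array, the delta genes GstD10, GstD9, GstD1, GstD2, GstD3, GstD4, GstD5 and GstD6 are direct neighbours in the genome on chromosome arm 3R, and GstE1, GstE2 and GstE3 are neighbours on 2R. Transcripts of such neighbouring copies are alike, so that a cDNA probe of a delta or epsilon gene may also bind its relatives, which was not tested, and values of single members of these clusters are uncertain in that sense.

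The values are log2 ratios of the 2 dyes, Cy5 over Cy3, after the authors' normalization. No source used here states whether ratios of swapped arrays were turned to PTZ over NF before deposit. Means and tests over 3 or 4 arrays are therefore given in 2 readings: turned, with the swapped arrays multiplied by -1, and as deposited. The direction over all 4 arrays is not settled. On forward arrays the ratio is PTZ over NF in either reading, though a dye effect cannot be told apart from PTZ there. For 3 arrays, replicates 3 and 4 at 12 hrs and replicate 2 on the 2nd day, the label fields disagree about dye or treatment, and title, protocol and methods decided their orientation. Of 13824 features, 4728 to 6037 had a value per array at 12 hrs. The 2nd day gave 5339 to 6338 and the 7th day 3088 to 9051, and replicates 1 and 2 of the 7th day correlated at -0.14. Photoreceptor markers of the labelled head tissue were measured, with 4, 4 and 3 of 5 features on at least 3 arrays at 12 hrs, the 2nd day and the 7th day. Of the neuronal markers 2 genes are on the array and nSyb, a synaptic vesicle protein gene, was measured at each time.

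Ugt genes were measured on fewer arrays than Gst genes. Of the 336 possible values of Gst features 153 (45.5%) passed the authors' spot filter, and of the 144 of Ugt features 42 (29.2%) did, beside 46.1% over all features with 1 symbol. At least 3 of 4 arrays gave a value for 12, 13 and 9 Gst genes at 12 hrs, the 2nd day and the 7th day, and for 2, 3 and 3 Ugt genes. Over all times 15 of 23 Gst genes (65.2%) and 6 of 12 Ugt genes (50.0%) reached that number at some time, beside 62.5% of all genes. GstD6, Ugt35A1, Ugt36F1, Ugt37A1 and Ugt37E1 had no value on any array. What follows therefore describes the members that passed the filter. The 2 spots of a member feature differed by a median of 0.15 on the log2 scale (195 pairs), against 0.14 over all features with 1 gene.

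The clearest differences stood on replicates 1 and 2 of the 2nd day, the forward arrays. A dye effect cannot be told apart from PTZ on these 2 arrays, and the label fields of replicate 2 disagree about dye or treatment. Of 15 member features with a value on both arrays, limma called 3 higher in PTZ heads than in NF heads, those of GstD1, GstD9 and Ugt37B1, and 2 lower, those of GstE14 and GstT4 (adjusted p under 0.05, 2-sided). Among all 4964 features of these arrays 40.7% were called, 7.43% higher and 33.3% lower. The share of members called, 5 of 15, was thus no higher than that of all features. On the swapped arrays of the same day none of 14 member features was called, beside 1.15% of all 4686 features, in a fit added after the data were seen.

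GstD1 encodes a delta enzyme that is induced by oxidants and removes chlorine from DDT. Its 3-array feature, measured on the 2nd day by the forward arrays only, read 0.75 and 0.93 on them (mean 0.84, 1.79-fold higher in PTZ, 95% interval 1.49 to 2.15). The adjusted p from limma was 2.4e-08. The other feature of GstD1, measured on 12 arrays, read 0.18 and 0.18 there and was not called (adjusted p = 0.283 from limma), so that the probes of the gene agree in sign and not in size. GstD9, the next gene to GstD1, read 0.70 and 0.45 on the same arrays. Its mean of 0.58 was 1.49-fold higher in PTZ, with a 95% interval of 1.24 to 1.79 and an adjusted p = 0.00016 from limma. Ugt37B1 read 0.31 and 0.45, a mean of 0.38 and 1.3-fold higher in PTZ (1.08 to 1.56, adjusted p = 0.0162 from limma). On both arrays each of these genes stood above 0, while the medians of all features were -0.14 and -0.20.

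On the same arrays GstE14 read -0.60 and -0.32. GstE14 is known as Noppera-bo, an epsilon enzyme needed for ecdysteroid synthesis. Its mean of -0.46 was 0.727 of the NF level (0.605 to 0.872, adjusted p = 0.00301 from limma). The theta gene GstT4 read -0.23 and -0.55, a mean of -0.39 and 0.763 of the NF level (0.635 to 0.916, adjusted p = 0.0129 from limma). The other 10 features were not called and had means from -0.26 for GstE2 to 0.22 for GstT3. With 2 arrays limma gave every feature the same spread, so these p-values follow the mean and not the gap between the 2 arrays. When the 2 arrays were centred on their medians, a setting chosen after the values were seen, GstE14 and GstT4 were no longer called and 6 features were, all higher in PTZ: both features of GstD1, GstD9, Ugt37B1, GstE3 and GstT3. Among all 4964 features 30.3% were called after centring, 15.2% higher and 15.1% lower. On the swapped arrays, turned, GstD9 averaged -0.07, GstE14 0.12 and GstT4 0.23, each opposite in sign to its forward mean, Ugt37B1 lay within 0.01 of 0 and the 12-array feature of GstD1 was at 0.16. As deposited these signs are reversed, and the 3-array feature of GstD1 has no value there. At 12 hrs none of 12 member features was called on the forward arrays, where 2.72% of all 3938 were, with GstD9 at 0.38 (unadjusted p = 0.0112 and adjusted p = 0.164 from limma). Of 12 on the 7th day none was, nor any of all 2944 (0%).

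**Figure D1:**
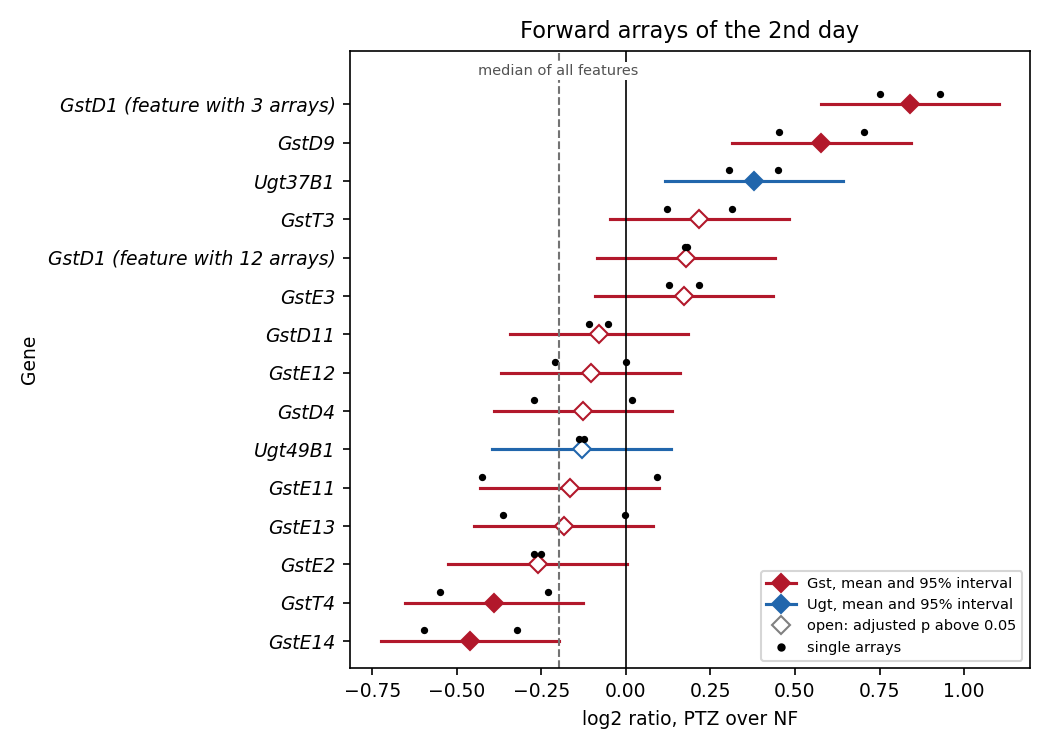
Log2 ratio of PTZ over NF (x axis) for the 15 member features measured on both forward arrays of the 2nd day (y axis). Black points are the 2 arrays, diamonds the mean with its 95% interval from limma, filled where the adjusted p is under 0.05, red for Gst and blue for Ugt, and the dashed line is the median of all features at -0.20. GstD1 at 0.84, GstD9 at 0.58 and Ugt37B1 at 0.38 stand to the right, GstT4 at -0.39 and GstE14 at -0.46 to the left.

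Markers of other cells moved on these forward arrays too. Of 7 features of head fat body markers, 7 were below 0 and 5 were called lower, with a median of -1.24 and a range of -1.63 to -0.05. The lipophorin gene apolpp is among them, and over the 4 arrays of that day it averaged -0.53 ± 1.26 (SD, n = 4) turned and -1.09 ± 0.62 as deposited. The 4 photoreceptor features had a median of 0.05 on the forward arrays, from -0.20 to 0.39, the 5 muscle features one of -0.08, from -0.22 to 0.05, and the 2 hemocyte features were at -0.19 and 1.11. The part of these cells in the values of Gst and Ugt genes was not tested.

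On the forward arrays the delta genes GstD1 and GstD9 were above 0 on the 2nd day and below 0 on the 7th, while their turned means over all arrays were above 0 on both days. The 12-array feature of GstD1 read, on replicates 1 to 4 as deposited, 0.29, 0.21, 0.13 and 0.04 at 12 hrs and 0.18, 0.18, -0.04 and -0.28 on the 2nd day. Its values of the 7th day were -0.90, -0.15, -0.52 and -1.27. GstD9 read 0.60, 0.17, -0.16 and 0.01 at 12 hrs, against 0.70, 0.45, 0.05 and 0.09 on the 2nd day. The 7th day gave -0.62, -0.59 and -0.68 on replicates 1, 3 and 4 and no value on replicate 2. As deposited all 4 arrays of this GstD1 feature and all 3 of GstD9 were thus negative on the 7th day, forward and swapped arrays alike. In that reading 880 of all 4316 features tested were negative on all their arrays of that day. The other GstD1 feature had 1 value on that day, -0.11 on replicate 1 where the 12-array feature read -0.90. The swapped arrays of GstD1 were below 0 on the 2nd day as well, and the ranges of GstD9 on the 2nd and 7th day did not overlap. How many of all features had ranges apart was not counted.

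As deposited, GstD1 averaged -0.71 ± 0.49 (SD, n = 4) on the 7th day (unadjusted p = 0.000935 and adjusted p = 0.0849 from limma) and GstD9 -0.63 ± 0.05 (n = 3) (unadjusted p = 0.0111 and adjusted p = 0.331 from limma). Neither passed the adjusted threshold. Each replicate was also left out of the deposited reading, a setting added after the data were seen. Without replicate 2, the array nearest 0 and with the fewest values, GstD1 passed at -0.90 (adjusted p = 0.0123 from limma), while without replicates 1, 3 and 4 it was at -0.65, -0.77 and -0.52 and did not pass (adjusted p = 0.994, 0.985 and 0.998 from limma). After centring it was at -0.58 (adjusted p = 0.582 from limma). With the swapped arrays turned the arrays of each gene split by sign, and the means were 0.19 ± 0.93 for GstD1 and 0.22 ± 0.72 for GstD9, beside 0.17 ± 0.10 and 0.26 ± 0.39 on the 2nd day (n = 4 each). As deposited the 2nd day means were 0.01 ± 0.22 and 0.32 ± 0.31. Between the 7th day and the 2nd day, GstD9 differed by -0.95 as deposited (95% interval -1.44 to -0.47, unadjusted p = 0.000541 and adjusted p = 0.263 from limma) and GstD1 by -0.72 (-1.19 to -0.25, adjusted p = 0.359 from limma). Turned, these differences were -0.04 and 0.02. The sign change between the days is therefore seen on the forward arrays and, for GstD9, in the deposited means, and no difference between the days passed the adjusted threshold.

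Some cell type markers were below 0 in the deposited reading of the 7th day too. The fat body gene apolpp averaged -1.05 ± 1.04 (n = 3, adjusted p = 0.0097 from limma), 2 of 4 fat body features passed lower and 2 were above 0, and all 3 photoreceptor features were below 0, with Arr1 at -0.81 and inaC at -0.55 and none passing. Turned, all of these features were above 0 and none passed, and on the forward arrays the 3 fat body features measured were all above 0, with a median of 0.47. Of all 4316 features tested, 3000 were below 0 as deposited and 79.6% above 0 turned. The part of these marker cells in the values of GstD1 and GstD9 was not tested.

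The array medians of the 7th day differed widely. Over all features they were 0.04 and 0.13 on replicates 1 and 2 and -0.04 and -0.64 on replicates 3 and 4 as deposited, so GstD1 lay below the median on each array. With the swapped arrays turned or as deposited, no member was called on that day after each array was centred on its median.

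**Figure D2:**
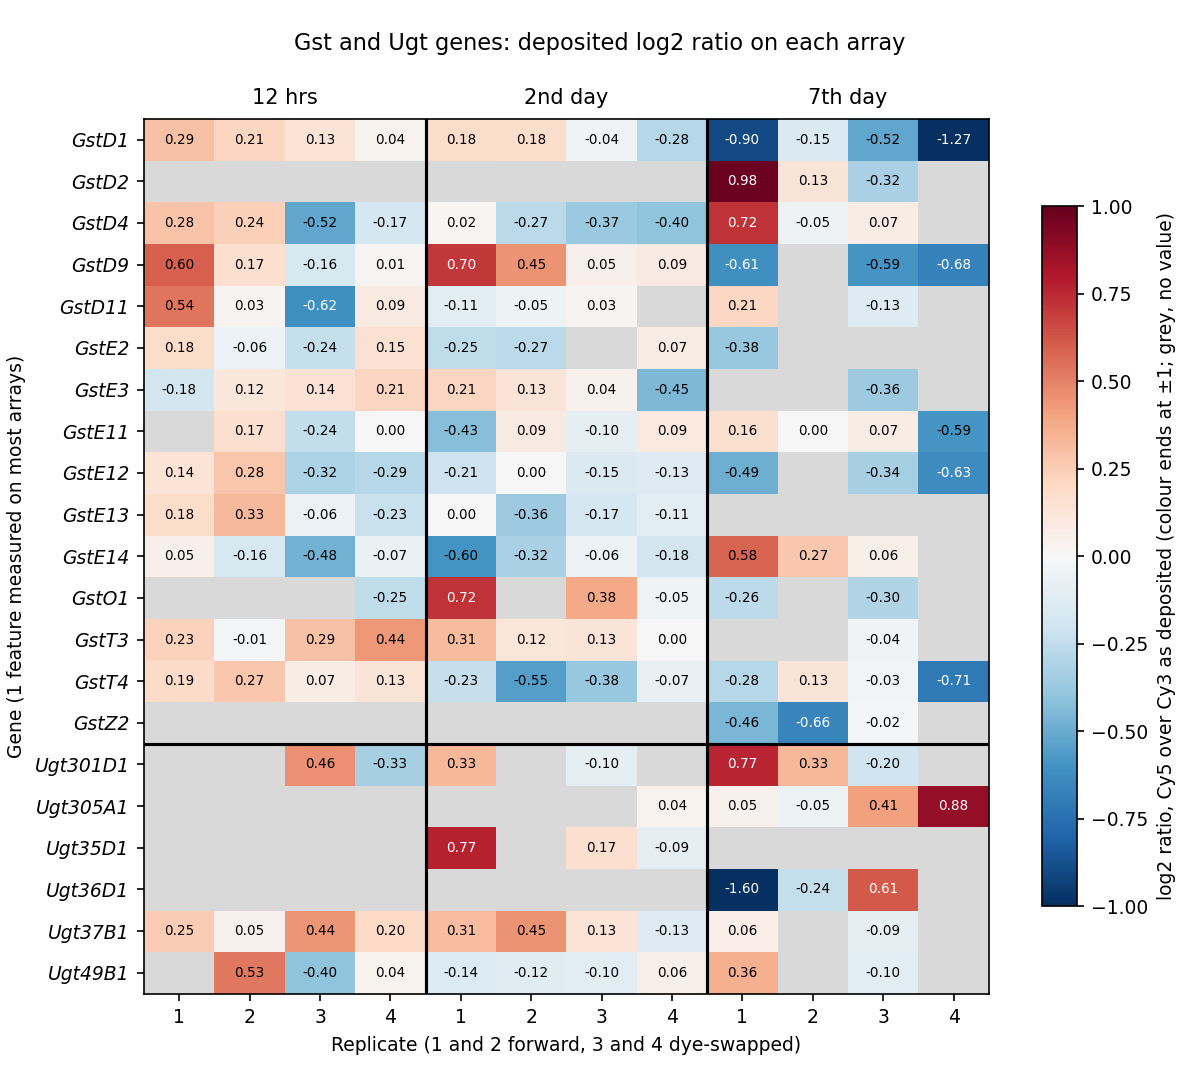
Deposited log2 ratio of Cy5 over Cy3 (colour and number; grey, no value) for each Gst and Ugt gene with a value on at least 3 arrays of a time point (rows) on each of the 12 arrays (columns, replicates 1 and 2 forward, 3 and 4 swapped). GstD1 and GstD9 read 0.18 and 0.70 on replicate 1 of the 2nd day and -0.90 and -0.62 on replicate 1 of the 7th day.

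GstD4, another delta gene of the cluster, read 0.28 and 0.24 on the forward arrays of 12 hrs and -0.52 and -0.17 on the swapped ones. The signs are opposite in the dye orientations, so that turned all 4 arrays were positive, with a mean of 0.30 ± 0.15 (SD, n = 4) (unadjusted p = 0.0127 and adjusted p = 0.284 from limma), and as deposited the mean was -0.04 ± 0.38. Turned, 1046 of all 4642 features were positive on all their arrays of 12 hrs. On the 2nd day GstD4 read 0.02, -0.27, -0.37 and -0.40. The deposited mean was -0.26 ± 0.19 (adjusted p = 0.222 from limma) and the turned one 0.13 ± 0.32. Its 3 values of the 7th day were 0.72, -0.05 and 0.07 (deposited mean 0.25 ± 0.41, turned mean 0.20 ± 0.45), and the 1 value of its other feature was 0.51, on the same replicate 1 as the 0.72.

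GstD11 read 0.54 and 0.03 on the forward arrays and -0.62 and 0.09 on the swapped arrays of 12 hrs, a turned mean of 0.27 ± 0.36 and a deposited one of 0.01 ± 0.47 (n = 4). On the 2nd day its 3 values lay between -0.11 and 0.03. GstD2 was measured on the 7th day only, at 0.98 and 0.13 on the forward arrays and -0.32 on a swapped array. Its turned mean was 0.48 ± 0.45 (n = 3, adjusted p = 0.964 from limma) and its deposited mean 0.26 ± 0.66. The remaining delta genes were seen almost only on replicate 1 of the 7th day, the array with the most values. There GstD3 read -0.24 and 0.31 on its 2 features, GstD5 0.24 and 0.55, GstD8 0.63 and GstD10 0.45, and the first of the GstD3 features read 1.28 on replicate 2. The 12-array feature of GstD1 and that of GstD9, at -0.90 and -0.62, had the lowest delta values on that array.

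GstE14 had the largest difference of means between the 2nd and 7th day of the 3 epsilon genes tested at both (GstE11, GstE12 and GstE14). It read 0.05, -0.16, -0.48 and -0.07 at 12 hrs and -0.60, -0.32, -0.06 and -0.18 on the 2nd day, as deposited. The 3 arrays of the 7th day gave 0.58, 0.27 and 0.06. Its 4 values of the 2nd day were all negative and its 3 of the 7th day all positive, so the ranges of these days did not overlap in this reading. Turned, its ranges overlapped. GstE12 also had ranges apart on these days as deposited, with the 7th day lower. The number of all features with ranges apart was not counted. Among all features, 1329 of 5279 were negative on all their arrays of the 2nd day and 257 of 4316 positive on those of the 7th, as deposited. For the GstE14 feature the deposited and turned means follow. The deposited mean of the 7th day was 0.30 ± 0.26 (n = 3), that of the 2nd day -0.29 ± 0.23 (n = 4), a difference of 0.59 (95% interval 0.13 to 1.06, unadjusted p = 0.0149 and adjusted p = 0.541 from limma). Turned, these means were 0.26 ± 0.32 and -0.17 ± 0.36 and the difference 0.43 (adjusted p = 0.509 from limma). GstE14 thus had the same sign of difference in both readings, and it passed the adjusted threshold in neither.

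GstE12 read 0.14 and 0.28 on the forward and -0.32 and -0.29 on the swapped arrays of 12 hrs. The turned mean was 0.25 ± 0.08 (n = 4, unadjusted p = 0.0192 and adjusted p = 0.292 from limma), the smallest spread among the members of that time in this reading, and the deposited mean was -0.05 ± 0.30. On the 2nd day it read -0.21, 0.00, -0.15 and -0.13 as deposited (deposited mean -0.12 ± 0.09, turned mean 0.02 ± 0.16, n = 4). At the latest time it read -0.49 on replicate 1 and -0.34 and -0.63 on the swapped arrays, a deposited mean of -0.48 ± 0.15 (n = 3, adjusted p = 0.516 from limma). Turned, that mean was 0.16 ± 0.58.

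GstE13 had turned means of 0.20 ± 0.11 at 12 hrs and -0.02 ± 0.24 at the 2nd day, and deposited means of 0.06 ± 0.25 and -0.16 ± 0.15 (n = 4 each). GstE2 had turned means of 0.05 ± 0.19 (n = 4) at 12 hrs and -0.20 ± 0.11 (n = 3) on the 2nd day, and deposited means of 0.01 ± 0.20 and -0.15 ± 0.19. None of these passed the test in either reading. GstE1, next to GstE2 in the genome, had 3 values from 1 of its features, -1.55 on replicate 1 of 12 hrs and 0.64 and -0.37 on the 7th day, and none from the other. GstE3 and GstE11 kept to means between -0.11 and 0.19 at the times they were tested, in both readings.

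Of the theta genes, GstT4 was measured on all 12 arrays. It read 0.19, 0.27, 0.07 and 0.13 at 12 hrs and -0.23, -0.55, -0.38 and -0.07 on the 2nd day, as deposited. All 4 values were positive at the first time and all 4 negative at the later one, and the ranges did not overlap. Of all features, 352 of 4642 were positive on all their arrays at 12 hrs and 1329 of 5279 negative on the 2nd day, as deposited. How many features had ranges apart was not counted. The deposited difference, 2nd day minus 12 hrs, was -0.47 (95% interval -0.86 to -0.09, unadjusted p = 0.0192 and adjusted p = 0.999 from limma), and the turned one was -0.15. The 7th day gave -0.28, 0.13, -0.03 and -0.71 (deposited mean -0.22 ± 0.37, turned mean 0.15 ± 0.41). The zeta genes, relatives of the mammalian maleylacetoacetate isomerase of tyrosine breakdown, were seen on the 7th day alone. GstZ2 read -0.46 and -0.66 on the forward arrays and -0.02 on a swapped array (deposited mean -0.38 ± 0.33, turned mean -0.37 ± 0.35, n = 3, not called in either reading), and its neighbour GstZ1 -0.47 and 0.43 on replicates 1 and 3. The theta gene GstT3 had deposited means of 0.23 ± 0.19 at 12 hrs and 0.14 ± 0.13 on the 2nd day (n = 4 each), against -0.13 ± 0.29 and 0.08 ± 0.19 turned, and the omega gene GstO3 had 3 values, 0.81 on replicate 3 of 12 hrs and 0.62 and 0.28 on the forward arrays of the 7th day. None of the theta and zeta means over 3 or 4 arrays passed limma's adjusted threshold in the fit without a dye coefficient.

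Ugt37B1 was the Ugt gene measured on most arrays. It read 0.25, 0.05, 0.44 and 0.20 at 12 hrs and 0.31, 0.45, 0.13 and -0.13 on the 2nd day, as deposited, and 0.06 and -0.09 on replicates 1 and 3 of the 7th day. Of these 10 values 8 were positive as deposited and 7 were with the swapped arrays turned. Its deposited means were 0.23 ± 0.16 and 0.19 ± 0.25 (n = 4 each) and its turned means -0.09 ± 0.30 and 0.19 ± 0.25, none of which passed the test. Ugt49B1 had a turned mean of 0.30 ± 0.30 and a deposited mean of 0.05 ± 0.47 (n = 3) at 12 hrs, from 0.53 on a forward and -0.40 and 0.04 on the swapped arrays, and lay between -0.14 and 0.06 on the 2nd day.

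The widest Ugt values came on the 7th day. Ugt36D1 read -1.60 and -0.24 on the forward arrays and 0.61 on a swapped array, so that turned all 3 were negative, with a mean of -0.82 ± 0.70 (unadjusted p = 0.00565 and adjusted p = 0.964 from limma). After the arrays were scaled to equal spread the turned mean was -0.76 and passed (adjusted p = 0.0384 from limma), beside 0.162% of all 4316 features. As deposited its mean was -0.41 ± 1.11. Turned, 116 of all 4316 features were negative on all their arrays of that day and 623 positive. Ugt301D1 read 0.77, 0.33 and -0.20, which are all positive once turned (mean 0.43 ± 0.30, n = 3, adjusted p = 0.964 from limma), and its deposited mean was 0.30 ± 0.48. With the median of its neighbours on the array subtracted the turned mean of Ugt301D1 was -0.02. Ugt305A1, named after its values were seen, read 0.05 and -0.05 on the forward arrays and 0.41 and 0.88 on the swapped ones (deposited mean 0.32 ± 0.42, turned mean -0.33 ± 0.42). Ugt317A1 and Ugt316A1 had 3 and 2 values in all, between -0.37 and 0.33 as deposited, too few at any time for a test over 3 or more arrays.

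Over all 4 arrays limma called no member at any time in either reading. In the turned reading, 0 of 14 member features passed at 12 hrs, 0 of 16 on the 2nd day and 0 of 12 on the 7th, and of all features 0%, 0% and 0% did. At an unadjusted p under 0.05 the members were GstD4 and GstE12 at 12 hrs (2 of 14, beside 15.6% of all features), none of 16 on the 2nd day (beside 9.32%) and Ugt36D1 on the 7th day (1 of 12, beside 2.27%). As deposited, again 0 members passed, beside 0%, 0.0189% and 0.672% of all features. At the unadjusted threshold they were none of 14 at 12 hrs (beside 3.34%), GstD4, GstD9, GstE14 and GstT4 on the 2nd day (4 of 16, beside 20.9%), and GstD1 and GstD9 on the 7th day (2 of 12, beside 9.64%). With 0 to 4 members at a time, these counts do not set the members apart from all features.

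With the dye orientation as a further coefficient, limma called members on the 2nd day in both readings. Turned, GstD9 (0.26, adjusted p = 0.0329 from limma) and Ugt35D1 (0.37, adjusted p = 0.0141 from limma) were called higher, beside 18.5% of all 5279 features. As deposited, a fit added after the data were seen, GstD9 (0.32), GstO1 (0.44) and Ugt35D1 (0.40) were called higher and GstD4 (-0.26), GstE14 (-0.29) and GstT4 (-0.31) lower, beside 29.2% of all. GstD9 and Ugt35D1 were the members called higher in both fits. With the median of its neighbours on the array subtracted, and no dye coefficient, the mean of GstD9 on that day was -0.06 turned and -0.08 as deposited. Ugt35D1 and the omega gene GstO1 were each measured on 1 forward array, at 0.77 and 0.72, and on the 2 swapped arrays, at 0.17 and -0.09 for Ugt35D1 and at 0.38 and -0.05 for GstO1, so their values rest on replicate 1. SAM, the one-class test of the study's methods, called at a false discovery rate of at most 25% and with the swapped arrays turned 6 members higher at 12 hrs (GstD4, GstD9, GstD11, GstE12, GstE13 and Ugt49B1), 2 lower on the 2nd day (GstE2 and GstE14) and 0 on the 7th day. Tested were 14, 16 and 12 members at these times. Of all features it called 23.6% (0 lower and 1096 higher), 38.2% (2016 lower and 1 higher) and 0.0695% (3 lower and 0 higher). As deposited it called 0 members at 12 hrs. On the 2nd day it called GstD9 and GstO1 higher and GstD4, GstE2, GstE12, GstE13, GstE14 and GstT4 lower, and on the 7th day GstD1, GstD9 and GstE12 lower. Of all features SAM then called 0.0862% (4 lower and 0 higher), 56.3% (2639 lower and 333 higher) and 7.78% (336 lower and 0 higher). The study's own SAM lists, at other false discovery rates, hold lower genes only, at each time. The SAM calls here differed from that in both readings. They were higher for 1096 features at 12 hrs turned and for 333 on the 2nd day as deposited. Which reading the study tested is not stated.

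Between time points, 0 of 14 member features differed between the 2nd day and 12 hrs, and 0 of 7 between the 7th and the 2nd day, in either reading. Of all features 0% and 0% passed in the first comparison and 0.0403% and 0.0403% in the other, turned and as deposited. At an unadjusted p under 0.05, GstT4 in the first comparison and GstD1, GstD9 and GstE14 in the other passed as deposited, and no member did turned.

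Most members had opposite signs on forward and swapped arrays at 12 hrs and equal signs on the 2nd day, as did most of all features tested. Of 14 member features, 8 were above 0 on the forward arrays and below 0 on the swapped arrays as deposited at 12 hrs (57.1%, beside 44.3% of all features tested). The other way went 1 (beside 18.7% of all), and 5 had 1 sign in both orientations (beside 19.2% above 0 and 17.8% below 0 in both). Of 16 on the 2nd day, 5 were above 0 in both orientations and 7 below 0 in both (31.2% and 43.8%, beside 15.2% and 43.1% of all). Of 12 on the 7th day, 2 were above 0 and 5 below 0 in both (beside 12.2% and 42.5% of all). On that day 3 were above 0 on forward and below 0 on swapped arrays (beside 38.4% of all) and 2 the other way (beside 6.84%). Pearson's r of forward with swapped means over members was -0.29, 0.52 and 0.05 at these times, against -0.14, 0.15 and 0.27 over all features tested, a description across features that share arrays.

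**Figure D3:**
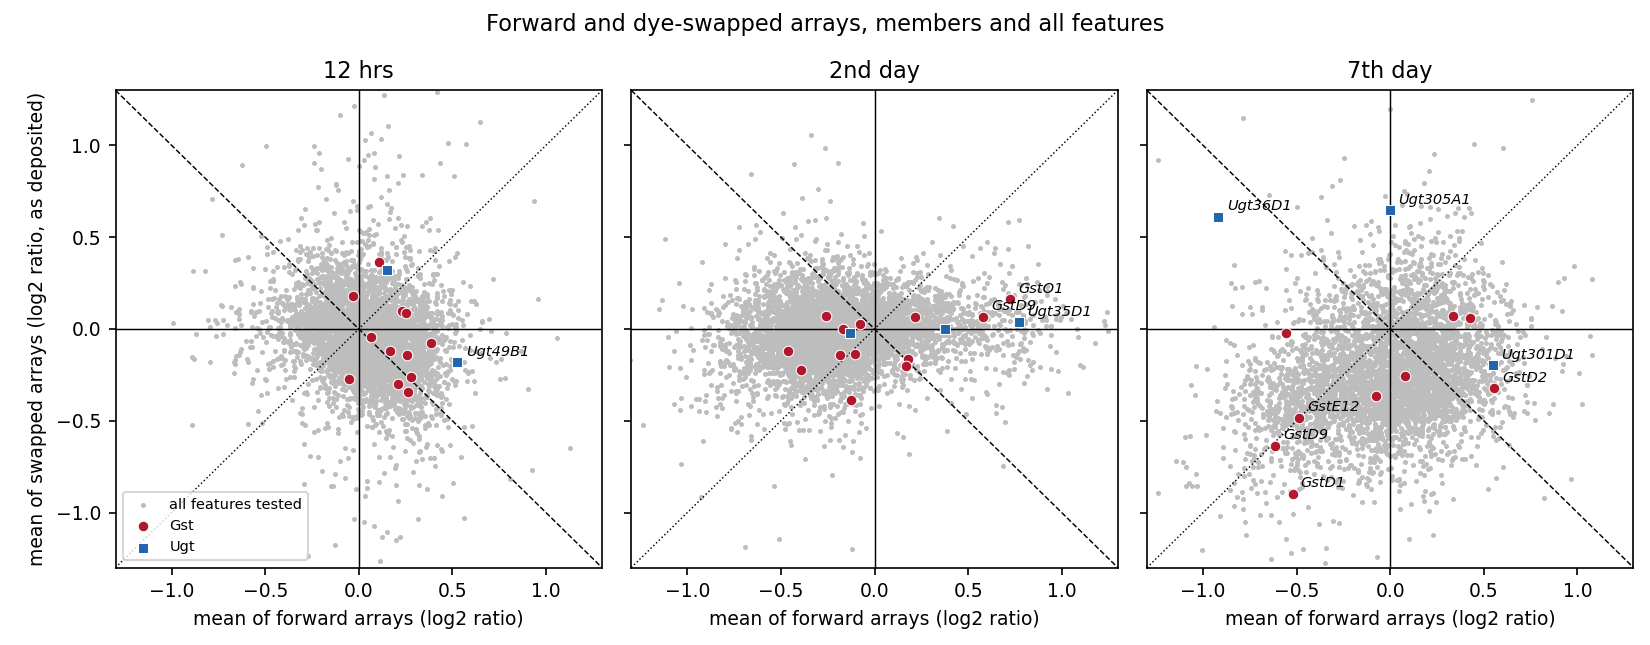
Mean log2 ratio on the forward arrays (x axis) against that on the swapped arrays as deposited (y axis) at 12 hrs, the 2nd day and the 7th day, for all features tested (grey), Gst (red circles) and Ugt (blue squares). Points on the dashed line would be swapped arrays that mirror the forward ones, points on the dotted line arrays of equal sign, such as GstD9 on the 7th day at -0.62 and -0.64. Points beyond 1.3 on either axis are cut off.

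The median of Gst genes and the median of Ugt genes did not differ by more than the spread over arrays at any of the 3 times with the swapped arrays turned. At 12 hrs the median was 0.12 over 12 Gst genes and 0.11 over 2 Ugt genes, a difference of 0.02 with an SD of 0.15 over the 4 arrays. On the 2nd day it was 0.02 over 13 Gst and 0.19 over 3 Ugt genes, a difference of -0.17 (SD 0.22). At the latest time it was 0.19 over 9 Gst and -0.33 over 3 Ugt genes, a difference of 0.51 (SD 0.82). As deposited the differences were -0.11 (SD 0.07), -0.28 (SD 0.13) and -0.52 (SD 0.69), with Gst genes below Ugt genes at each time and the difference larger than its SD at 12 hrs and on the 2nd day. With 2 or 3 Ugt genes each Ugt median rests on 1 or 2 of them. Leaving out replicate 1 brought the turned difference of the 2nd day to 0.02, and leaving out replicate 4 that of the 7th day to -0.06.

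On single arrays the Ugt median, as deposited, lay above the Gst median on 10 of 12, on replicate 4 of the 2nd day by less than 0.01. With the swapped arrays turned it did on 4 of 12. At 12 hrs it was 0.29 for Ugt against 0.19 for Gst on replicate 1, 0.29 against 0.17 on replicate 2, 0.44 against -0.16 on replicate 3 and 0.04 against 0.01 on replicate 4. On the 2nd day it was 0.32 against 0.01, 0.16 against 0.00, 0.02 against -0.05 and -0.09 against -0.09. On the 7th day it was 0.16 against 0.21, -0.05 against 0.13, 0.02 against -0.13 and 0.88 against -0.68, the last from 1 Ugt feature, that of Ugt305A1, and 5 Gst features. The Gst median differed from the median of all features by at most 0.20 on the 12 arrays.

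**Figure D4:**
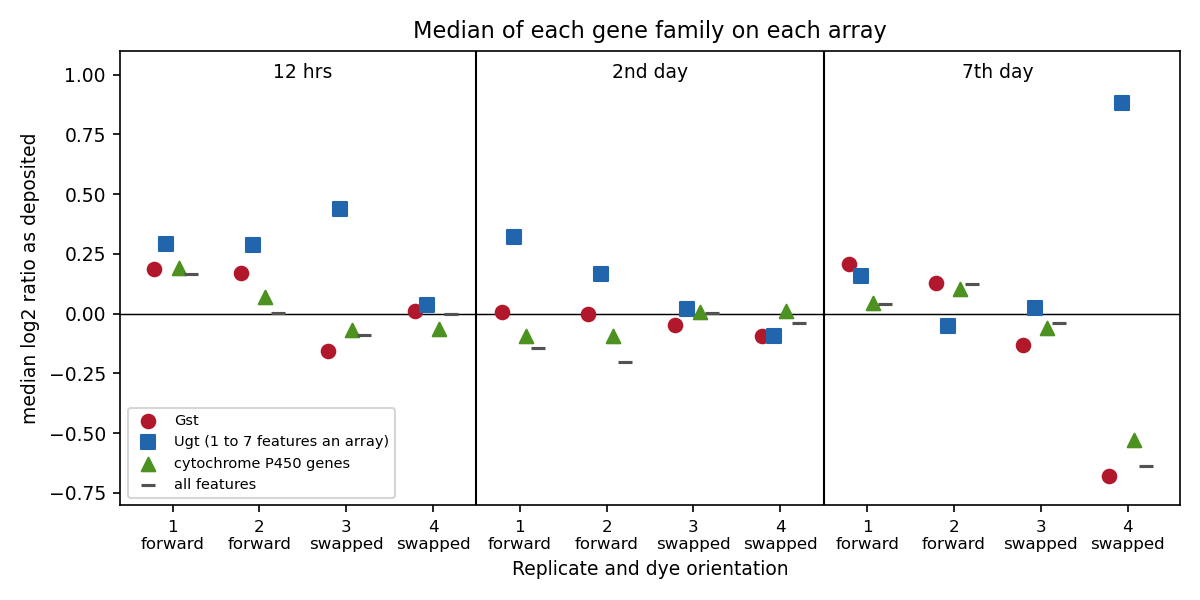
Median deposited log2 ratio (y axis) of Gst, Ugt and cytochrome P450 features and of all features on each of the 12 arrays (x axis, by time, replicate and dye orientation). Ugt medians rest on 1 to 7 features an array. The Ugt median of 0.88 on replicate 4 of the 7th day stands apart from the Gst median of -0.68 and the median of all features of -0.64.

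Neither the cytochrome P450 genes nor the lists of glutathione and UDP-sugar genes had a call over the 4 arrays. P450 enzymes oxidise many of the compounds that Gst and Ugt enzymes then conjugate. The P450 list was taken by symbol, Cyp and a digit. It therefore also holds Cyp40, a cyclophilin gene and no P450, and the pseudogenes Cyp6a15Psi and Cyp6a16Psi. Of 33, 35 and 20 P450 features tested at the 3 times, 0 passed the adjusted threshold in either reading, and their turned medians were 0.08, -0.08 and 0.06, against 0.12, 0.02 and 0.19 for Gst features and 0.07, -0.08 and 0.16 for all features. Of 32 P450 features with a value on both 2nd day forward arrays 7 were called lower and 0 higher, and of 13 Gst features 2 were called lower and 2 higher, beside the 33.3% lower and 7.43% higher of all features. The P450 and Gst counts were not tested against each other. The list of glutathione supply and thiol redox holds on the array, among others, Gclm of glutathione synthesis, thioredoxins, peroxiredoxins, Sod2 and the regulators Keap1 and maf-S. Exporter genes (MRP, Mrp4, Mdr49, Mdr50 and Mdr65) are on it too. It had 12, 13 and 8 features tested, 0 of them called in either reading, with turned medians of 0.10, -0.03 and 0.08. There 1 of its 11 features on the forward arrays was called lower on the 2nd day. The list of UDP-sugar supply and glucuronidation also holds the beta-glucuronidase genes betaGlu and CG15117. It had 5, 6 and 6 features tested and 0 called, with turned medians of 0.12, -0.14 and 0.30 and deposited medians of 0.02, -0.08 and -0.22. In the forward fit for the 2nd day 1 of its 6 features was called lower. On the 7th day all 6 of its features were above 0 turned and below 0 as deposited. Of all 4316 features tested that day, 79.6% were above 0 turned and 3000 were below 0 as deposited.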

How the data were processed

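The authors scanned the cDNA arrays with GenePix, normalized them by ratio in Acuity and kept spots by intensity, saturation, flags and signal over background, and the deposited values are log2 ratios of the channels. Their scale is log2 by their range, and their direction on the swapped arrays is unknown. The number of arrays limits the precision, and a filtered spot gives no level for a dim gene.

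Each probe is spotted next to itself, and its 2 spots were averaged to give 1 feature. Means of a time point were tested 2-sided with limma (version 3.58.1, R 4.3.3) wherever 3 or 4 arrays had a value, on the whole table, with Benjamini-Hochberg adjustment over all features and a threshold of 0.05. Turning the swapped arrays was the main reading, because the ratio is named by scanner channel. Time points were compared in 1 fit over 12 arrays. The methods call the replicates biological. PTZ and NF RNA share each array, so there is no separate spread of NF. Same-numbered arrays of 12 hrs and the 2nd day deviated together (r of 0.20, 0.16, 0.18 and 0.10, with the same dye orientation in each pair). Differently numbered arrays of equal dye orientation did so to a like degree (r of 0.25, 0.19, 0.09 and 0.13). The shared deviation was thus not particular to same-numbered arrays. Same-numbered arrays of the 7th day had r from -0.064 to 0.065 with those of 12 hrs and from -0.028 to 0.179 with those of the 2nd day. The members and the gene lists were chosen with earlier results of these data known.

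By gene ID 7449 of the 7558 features were found in Release 6 of the assembly, 80 spots were members and 0 member spots carried several genes. Members were given with values if they passed the test in either reading, were among the 3 of their family with the largest mean and 1 sign on all arrays at a time point, stood on the study's own lists of lower genes, which were chosen on these arrays and are no independent evidence, or had several features. Of the other lists up to 4 genes were eligible. Ugt305A1, Ugt35D1, GstO1, GstE3, GstE11, GstT3, GstZ1, GstO3, Ugt316A1, Ugt317A1 and the delta genes with 1 value were added after their values were seen. The limma step was tested on simulated data. Alternatives were the deposited reading, centring, scaling, subtracting the median of 10 neighbours on each side of a feature, forward arrays only, other minimum numbers of arrays, a dye coefficient, 1 fit over all arrays, averaging per gene, SAM, a replicate block and leaving out each replicate. No coordinates and no sequences are given, and the 0 hr arrays are not analysed here.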

Additional observations from a re-analysis of the deposited data

Results flagged for a closer look

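No member stood apart on 1 array of a time point by Dixon's 95% value, in 56 sets of 4 arrays checked over both readings, where chance alone would give about 1 in 20. No difference between time points passed the adjusted threshold in limma among the 42 member comparisons made over both readings, with 1 in the first comparison of times and 3 in the other at an unadjusted p under 0.05, all as deposited.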

How the results depend on the processing

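The count of members called over 4 arrays, 0 at each time with the swapped arrays turned, remained 0 as deposited, centred, with neighbours subtracted, with other minimum numbers of arrays, in 1 fit over all arrays and averaged per gene, and without each replicate (range 0 to 0 at each time), though as deposited GstD1 passed on the 7th day without replicate 2 (-0.90), a setting added after the data were seen. It was 6 at 12 hrs and 2 on the 2nd day under SAM, 5 on the 2nd day with forward arrays only and 6 after these were centred (beside 30.3% of all features), 2 with a dye coefficient on the 2nd day and 6 with that coefficient as deposited, and 1 on the 7th day after scaling (Ugt36D1, beside 0.162% of all). The dye coefficient as deposited and the centred forward arrays were chosen after seeing the data. Fewer than the 12 members of the 7th day could be tested in some settings. These were 4 with a value on all 4 arrays, and 4, 6, 4 and 10 without replicates 1, 2, 3 and 4. The counts of 0 in these settings cover those members only. Between times 0 members were called with the replicate block in either comparison, as without it, so the pairing changed no call. The turned difference of the family medians at 12 hrs, 0.02, was 0.19 with a value on all 4 arrays or on at least 2, and ran from -0.049 to 0.203 without each replicate. On the 2nd day it ran from -0.32 to 0.02 and on the 7th day from -0.06 to 0.65, against -0.17 and 0.51, and it was -0.52 on the 7th day as deposited. The causes were not tested. GstD4, higher under SAM at 12 hrs turned (0.30), was at -0.04 as deposited, and GstD4 of the 2nd day, lower as deposited with a dye coefficient (-0.26), was at 0.13 turned. With neighbours subtracted GstD9 of the 2nd day was at -0.06 turned and -0.08 as deposited. With 2 to 4 values a feature, the number of arrays limits what could be called.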
